A study of Mus musculus with 2 samples.

Results

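The lysosome genes described here are 45 genes for lysosomal cathepsins, other hydrolases, membrane proteins and their cofactors, chosen by gene name among 27670 names on an Agilent whole mouse genome array. All 45 had at least 1 probe (78 probes in all, 10 of them under an older or other symbol in the files). Of these genes, 43 were well above background on both arrays, out of 16574 such genes in the whole series, and the other 2, Ctsk and Ctsw, were well above background on 1 array alone.

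The samples were cultures of M/E cells, bone marrow cells of the mouse made immortal with MLL/ENL, a fusion gene of leukaemia. Both cultures had the genotype Mef2c del/-, which per the labels leaves no functional MEF2C, a transcription factor of muscle, brain and blood cells. The control culture was infected with the empty vector MYs-iPAC, and the MEF2C-ASR culture with a vector for a constitutively active Mef2c whose binding of histone deacetylases is mutated. Both were selected with puromycin, grown with 10% FCS, 100 ng/ml SCF and IL3, GM-CSF and IL6 at 10 ng/ml each, and harvested 6, 24 and 48 h after seeding, and the RNA of the 3 harvests was pooled. Each group was 1 array, so no value has a replicate check, no test was run, and "higher" and "lower" describe these 2 arrays. The labels do not say whether either culture was a clone or a mixed population.

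Lysosomes are acidic compartments in which proteins, glycans, lipids and nucleic acids are broken down. Their enzymes are made in the endoplasmic reticulum, carried there by mannose 6-phosphate receptors and held behind a membrane of heavily glycosylated proteins, and the transcription factor TFEB is known to drive many of their genes through CACGTG sequences near the start site. In macrophages, neutrophils and their precursors, lysosomes and related granules also serve the killing of microbes and the cutting of antigens for MHC class II.

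Levels were compared as log2 of the processed signal (a linear intensity) after scaling each array by its 75th percentile, and a difference is always MEF2C-ASR minus control. A gene's difference is the mean over its measured probes, and a fold is the same difference on the linear scale after scaling. The only error that could be measured was that between spots of one probe on one array, from 150 probes printed 10 times. As a standard deviation of a difference it was 0.25 for dim probes, 0.08 for probes of middle level and 0.06 for bright ones (log2), and it leaves out cultures, RNA pools and labelling. Of 43379 non-control spots, 60.1% were well above background for control and 67.5% for MEF2C-ASR, and both arrays lay on the same slide. In what follows a pair of signals gives control first, then MEF2C-ASR. Mef2c itself gave 795 and 1969, a 2.54-fold difference (log2 1.34). Another Mef2c probe stayed at background on both arrays (7.86 and 7.76), and the labels do not say whether the vector's transcript holds the measured probe, so this check of the labels is partial.

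Cathepsin S and the lysozyme Lyz1 were the only members past 2-fold with MEF2C-ASR, both higher. At this size 2 of 43 measured members were higher, beside 1.74% of all measured genes, and 0 of 43 lower, beside 1.91%. At 1.5-fold, a size chosen after the values were seen, Ctss, Lyz1, Lyz2, Psap, Ctsh and Cd68 were higher (6 of 43, beside 4.46% of all genes) and none was lower (5.03% of all genes). Just short of that size were Ctsb, at 0.56, and Ctsl, at -0.53. Most members differed little: 37 of the 43 were within 1.5-fold, beside 90.4% of all genes. The difference was above 0 for 32 members and below 0 for 11, while 44.8% of all genes were above 0 and 55.2% below. The members' median was 0.11, beside -0.03 for all genes. A difference larger than 2 spotting errors was found for 27 members, 22 higher and 5 lower, beside 20.4% and 24.4% of all genes. That error is smaller for bright probes than for dim ones, and members and all genes were not matched by level. These shares therefore cannot be compared directly. Gusb, Neu1 and M6pr are among the 27 by their means, although their probes differed in sign.

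The scaling set where 0 lies. Scaling by the spike-in spots moved the median of all genes from -0.03 to -0.16 and that of the members to -0.02, and left 21 of 43 members above 0 and Ctss alone past 2-fold. It also left 4 members at least 1.5-fold higher, with Ctsh at 0.54 and Cd68 at 0.52 no longer among them. Such scaling shifts every gene by the same amount, so the gap of 0.14 between the medians is fixed and shows nothing about stability. With normexp background correction on the local backgrounds as deposited, 6 members were at least 2-fold higher and 4 lower, 19 members changed sign and the median of all genes was -0.58. On the control array those backgrounds reached 63509, against a median of 38. With only the flagged backgrounds set to the array's median, Ctss and Lyz1 were again the members past 2-fold, and the median of all genes was -0.03.

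**Figure D1:**
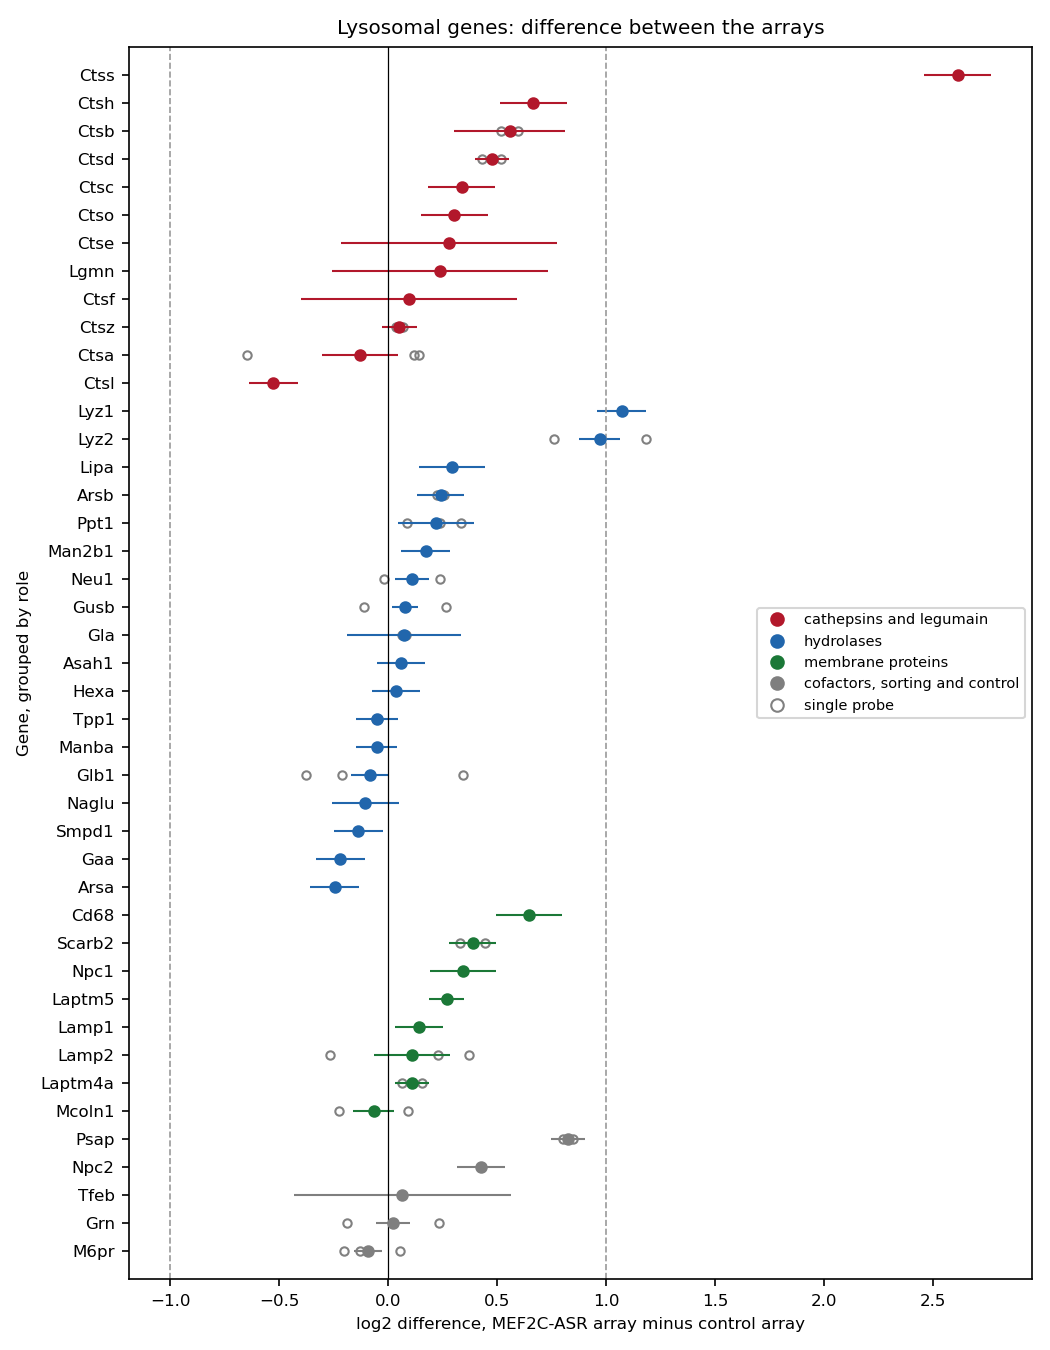
Difference of the 43 measured members (log2, MEF2C-ASR minus control; horizontal axis), grouped by role, with filled points for genes, open points for probes of genes with several, and bars of 2 spotting errors on each side of a gene. Ctss stands apart at 2.61, Lyz1 lies past the dashed 2-fold line at 1.07, and Ctsl is the lowest at -0.53.

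The upstream sequences of 6 members are shown. Ctss, Lyz1 and Lyz2 are the members with the largest differences, and Ctsl, Ctsd and Lamp1 are from the 12 with the TFEB-type sequence. Members selected in this way cannot show whether that sequence goes with the differences. The sequences are the 250 bases before the annotated start, 5′ to 3′ on the gene's strand, from RefSeq on GRCm38.p6, with CACGTG in capitals. Ctss (chr3:95526536-95526785, plus strand), Lyz1 (chr10:117292869-117293118, minus strand) and Lyz2 (chr10:117282273-117282522, minus strand) have none. Ctsl (chr13:64370521-64370770, minus strand), Ctsd (chr7:142387828-142388077, minus strand) and Lamp1 (chr8:13158911-13159160, plus strand) hold it.
Ctss: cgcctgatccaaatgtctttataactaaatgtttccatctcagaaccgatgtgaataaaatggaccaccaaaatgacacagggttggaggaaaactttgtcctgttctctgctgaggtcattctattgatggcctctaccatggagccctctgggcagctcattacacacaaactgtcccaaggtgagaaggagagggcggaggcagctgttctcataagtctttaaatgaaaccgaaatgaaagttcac
Lyz1: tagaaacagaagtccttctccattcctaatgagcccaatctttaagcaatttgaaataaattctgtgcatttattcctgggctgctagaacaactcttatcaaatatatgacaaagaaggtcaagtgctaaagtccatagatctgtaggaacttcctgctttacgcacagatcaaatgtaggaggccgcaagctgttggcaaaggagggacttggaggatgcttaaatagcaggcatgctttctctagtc
Lyz2: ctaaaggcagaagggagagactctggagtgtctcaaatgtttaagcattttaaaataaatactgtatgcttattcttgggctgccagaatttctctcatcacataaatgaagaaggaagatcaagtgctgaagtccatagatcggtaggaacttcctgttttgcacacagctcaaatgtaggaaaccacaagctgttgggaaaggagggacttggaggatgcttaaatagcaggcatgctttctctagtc
Ctsl: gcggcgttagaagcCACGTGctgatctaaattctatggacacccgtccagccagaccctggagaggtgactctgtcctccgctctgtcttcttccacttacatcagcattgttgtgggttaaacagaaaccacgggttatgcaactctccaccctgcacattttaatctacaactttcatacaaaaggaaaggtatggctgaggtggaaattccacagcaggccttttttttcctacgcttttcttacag
Ctsd: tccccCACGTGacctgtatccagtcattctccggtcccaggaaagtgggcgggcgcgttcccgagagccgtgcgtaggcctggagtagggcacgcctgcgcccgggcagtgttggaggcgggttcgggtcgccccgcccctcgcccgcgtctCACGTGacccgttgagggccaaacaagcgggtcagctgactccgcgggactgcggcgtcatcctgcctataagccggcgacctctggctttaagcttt
Lamp1: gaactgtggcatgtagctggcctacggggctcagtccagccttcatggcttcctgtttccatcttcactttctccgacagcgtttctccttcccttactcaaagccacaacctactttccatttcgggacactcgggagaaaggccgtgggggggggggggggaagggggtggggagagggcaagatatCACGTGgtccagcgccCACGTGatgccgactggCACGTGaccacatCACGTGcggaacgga

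The lysozyme genes lie side by side on chromosome 10, and their 300-base windows (250 bases before the start and 50 after) were identical in 254 of 310 aligned columns (81.9%). Promoter windows of that length were matched for 38 of the 45 members. M6pr, Ctsh, Ctsw, Asah1, Ctsb, Npc1 and Ctse had no window. CACGTG, which reads the same on both strands, was in a window of 12 of these 38 members (31.6%), beside 11.2% of measured genes and 8.09% of all 27025 genes with a window. These 12 were Arsa, Ctsa, Ctsd, Ctsf, Ctsl, Gaa, Gla, Glb1, Lamp1, Lgmn, Mcoln1 and Naglu. The longer TCACGTG, searched on both strands and always holding CACGTG within it, was in 10 members (26.3%), beside 6.40% of measured genes. Lamp1 has 4 copies of CACGTG in its window, and Ctsd has 2, 245 and 98 bases before the start.

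The members with this sequence were not those that were highest with MEF2C-ASR, and whether TFEB has a part in the differences was not tested. The 12 with CACGTG had differences between -0.53 and 0.47 with a median of -0.08, and 5 of them were above 0. The 25 measured members with a window and without it ran from -0.14 to 2.61 with a median of 0.22, and 22 were above 0. None of the 5 members at least 1.5-fold higher that had a window (Ctss, Lyz1, Lyz2, Psap and Cd68) held it. Only 11.2% of measured genes with a window hold CACGTG, so its absence from so few members shows little. Of all measured genes 44.8% were above 0. All genes were not split by this sequence, so whether the contrast is particular to the members was not tested. Among the 12, Ctsa, Glb1 and Mcoln1 had probes of opposite sign, and among the 25, Lamp2, Gusb, Neu1 and Grn did. With the brightest probe per gene, Ctsa and Mcoln1 turned above 0 and Gusb below 0. The medians and counts of each side therefore depend on which probes are used. The MEF2 site, searched by its consensus on both strands, was in the window of Mcoln1 alone (2.63% of the 38 members, beside 2.28% of measured genes), and these windows say nothing of sites farther away.

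Among the cathepsins, the papain-like, aspartic and serine proteases of the lysosome, 10 of the 12 measured genes were above 0 (legumain included) and the median was 0.29. Cathepsin S, a cysteine protease that stays active at neutral pH and trims the invariant chain from MHC class II, gave a signal of 1042 in control and 6211 with MEF2C-ASR. That is 6.11-fold higher (log2 2.61, spotting error 0.08), a larger difference than that of 99.9% of all measured genes, and it stayed between 2.45 and 2.63 under every alternative run. It came from 1 probe, so alternatives that choose among probes could not move it. Neither could the deposited value table, which held the same values. The range therefore reflects scaling, normalization and background correction alone. The files place the probe on chromosome 3 between 95430189 and 95430248. They name no build for that position, so it cannot be set against the coordinates of the upstream sequence.

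Cathepsin H, an aminopeptidase, gave 500.2 and 774 (1.59-fold higher, log2 0.67). Cathepsin B, an abundant cysteine protease with carboxypeptidase activity, gave 18157 and 26777 with its bright probe and 115 and 161 with its dim one. Both Ctsb probes were higher with MEF2C-ASR, by 0.60 and 0.52. Cathepsin D, the main aspartic protease of lysosomes, gave 48340.2 and 63524 with one probe and 9819 and 13709 with the other, for a mean difference of 0.47. Its probes also had one direction. Cathepsin C, which activates the serine proteases of granules, gave 2165 and 2665 (0.34). Cathepsin O, a little-studied cysteine protease, gave 1114 and 1341 (0.30). These 5 genes each differed by more than 2 spotting errors.

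Cathepsin L, a broad endopeptidase of the same papain-like family as cathepsin S, went the other way. Its signal was 18327 in control and 12404 with MEF2C-ASR, 1.44-fold lower (log2 -0.53, spotting error 0.06). Ctsl was thus lowest and Ctss highest of all measured members, although both are lysosomal cysteine proteases. The sign of Ctsl turned only with normexp on the backgrounds as deposited (0.11).

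Cathepsin Z, a carboxypeptidase, was nearly alike on both arrays, at 59222 and 60538 with one probe and 50182 and 50110.3 with the other (mean difference 0.05). Cathepsin A, which protects and stabilises the sialidase Neu1 and the galactosidase Glb1, had bright probes at 0.12 and 0.14 and a dim probe at -0.65. That dim probe gave 118 and 73.5, and it turned the mean of Ctsa to -0.13. The remaining measured proteases were dim, and none of their differences reached 2 spotting errors of 0.25. Cathepsin E, an aspartic protease of endosomes, gave 132 and 156 (0.28), cathepsin F 196 and 205 (0.10), and legumain, which cuts after asparagine and processes other cathepsins, 43.4 and 49.9 (0.24).

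Cathepsins K and W had only a bound or no fold. Ctsk, the collagen-cutting protease of osteoclasts, had a signal of 17.8 in control, not well above background, and 38.3 with MEF2C-ASR. Against the dimmest control level that was well above background its bound was a log2 difference of 0.04. The bound was below 0 with spike-in scaling, with the 75th percentile of probes well above background and with normexp on the backgrounds as deposited, so no fold is given. Ctsw, a protease of cytotoxic lymphocytes, gave 29.0 and 24.1 and was well above background with MEF2C-ASR alone, where the threshold lay lower (a level of -5.96 against -5.05 on the control array). No fold is given for it.

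**Figure D2:**
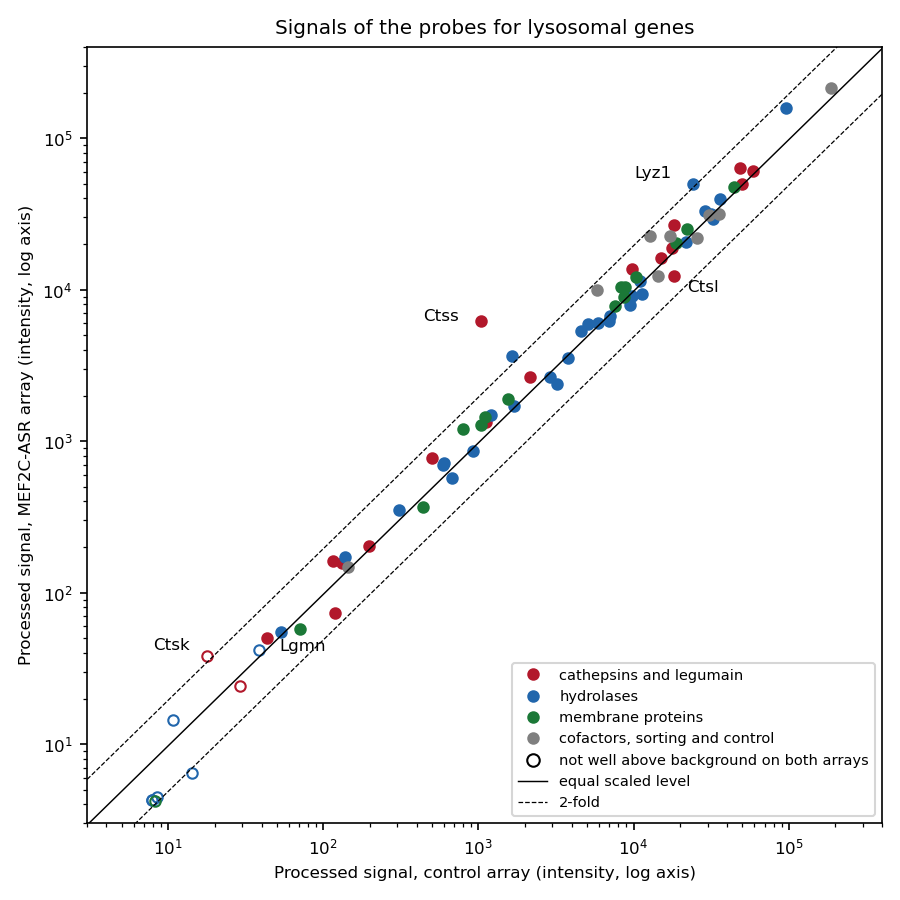
Processed signal of each of the 78 probes on the control array (horizontal, log axis) and the MEF2C-ASR array (vertical, log axis), coloured by role, with open points for probes not well above background on both arrays, a solid line for equal scaled level and dashed lines for 2-fold. The Ctss probe lies well above the upper dashed line at 1042 and 6211, and most other probes lie near the solid line.

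Of the 18 other hydrolases, all measured, 11 were above 0 and 7 below, and the median was 0.07 (-0.06 with spike-in scaling). Lyz1 and Lyz2 are the paired mouse lysozymes, which cut bacterial cell wall, and Lyz2 is abundant in neutrophil granules and macrophages. Lyz1 gave 24219 in control and 49599.8 with MEF2C-ASR, 2.10-fold higher (log2 1.07, and 0.94 with spike-in scaling). Lyz2 gave 95522 and 157599 with its bright probe (0.76) and 1646 and 3644 with the other (1.18). The Lyz2 probes had one direction but differed by more than their spotting errors, and their mean was 0.97, just short of 2-fold. The bright spot of Lyz2 carried a background flag, and without it Lyz2 stood at 1.18 and past 2-fold. Because the genes are related, signal may be shared between their probes, which was not tested.

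Among the enzymes of lipid and protein breakdown, the acid lipase Lipa, which frees cholesterol from its esters, gave 601 and 718 (0.29). The palmitoyl thioesterase Ppt1 had 3 measured probes, all above 0, for a mean of 0.22. The tripeptidyl peptidase Tpp1 gave 21723 and 20514 with its bright probe (mean of both probes -0.05). The acid ceramidase Asah1 gave 5929 and 6023 (0.06), and the acid sphingomyelinase Smpd1 6998 and 6204 (-0.14). Of these 5, Lipa and Ppt1 were higher by more than 2 spotting errors and Smpd1 lower.

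Among the sulfatases, Arsa, which removes sulfate from sulfatide, gave 11348 and 9332 (1.19-fold lower, log2 -0.25). Arsb, which acts on dermatan sulfate, was above 0 with both measured probes, at 307 and 350.4 and at 594 and 692 (mean 0.24). The sulfatases therefore stood on opposite sides of 0, each by more than 2 spotting errors.

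Among the glycosidases, the glucosidase Gaa, which breaks down glycogen, gave 9446 and 7912 (1.16-fold lower, log2 -0.22). The alpha-mannosidase Man2b1 gave 35987 and 39519 (0.17) and the beta-mannosidase Manba 9732 and 9148 with its bright probe (mean -0.05). Hexa, a subunit of the hexosaminidase that acts on ganglioside, gave 31489 and 31493 (0.04). The glucosaminidase Naglu, of heparan sulfate breakdown, gave 2904 and 2633 (-0.11), and the galactosidase Gla 1687 and 1716 with its bright probe (mean 0.07). Gaa was lower and Man2b1 higher by more than 2 spotting errors, and the rest were not beyond that error.

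The probes of 3 further glycosidases disagreed in sign. The galactosidase Glb1 had probes at -0.38, -0.21 and 0.34. The sialidase Neu1 gave 28934 and 33236 with its bright probe (0.24) and 7004 and 6734 with the other (-0.02). The glucuronidase Gusb was printed 10 times with one probe, which gave 30179 to 34006 (median 32067) in control and 27617 to 30377 (median 28824) with MEF2C-ASR. The spots of Gusb overlapped between the arrays on the signal scale, and after scaling their mean difference was -0.11 over the 8 spots without an outlier flag on either array. A second Gusb probe gave 5063 and 5928 (0.26), so the spots of one probe were closer to each other than its probes were. Probes of opposite sign were found in 8 of the 21 members with several measured probes (38.1%), beside 32.4% of all such genes.

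The membrane proteins had a median of 0.20, with 7 of 8 above 0. CD68, a heavily glycosylated protein of late endosomes used as a macrophage marker, gave 792 and 1209.8 (1.57-fold higher, log2 0.65). Scarb2, the receptor that carries glucocerebrosidase to lysosomes, gave 1553 and 1906 with one probe and 1095 and 1454 with the other (mean 0.39). Npc1, which exports cholesterol from the lysosome, gave 1033 and 1277 (0.34). Cd68, Scarb2 and Npc1 were all higher by more than 2 spotting errors.

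Laptm5, a lysosomal membrane protein of blood cells, gave 8808 and 10348 and, with its second probe, 10359.5 and 12145 (mean 0.27). Its relative Laptm4a gave 18815 and 20404 with its bright probe (mean 0.11). Lamp1, a principal membrane glycoprotein, gave 44627 and 47995 (0.14). Lamp2, the other such protein, which also serves autophagy, had probes at 0.37, 0.23 and -0.27. The negative Lamp2 probe was dim, at 71.2 and 57.7. The calcium channel Mcoln1 had a bright probe at 0.09 and a dimmer one at -0.23.

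Of the cofactors, Psap had the largest difference. Prosaposin, the precursor of the saposins that present sphingolipids to hydrolases, gave 5821 and 9905 with one probe and 12802 and 22473 with the other. The Psap probes were 0.80 and 0.85, a mean of 0.83 with a spotting error of 0.04. Npc2, which hands cholesterol to Npc1, gave 17244 and 22578 (0.42).

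The other cofactors and regulators were nearly level. Progranulin, the secreted precursor encoded by Grn, gave 187526 and 214768 with one probe (0.23) and 25583 and 21851 with the other (-0.19), a mean of 0.02. M6pr, the cation-dependent mannose 6-phosphate receptor, had 3 bright probes at 0.05, -0.13 and -0.20 (mean -0.09). Tfeb gave 144 and 147 (0.06), a difference well inside its spotting error of 0.25.

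**Figure D3:**
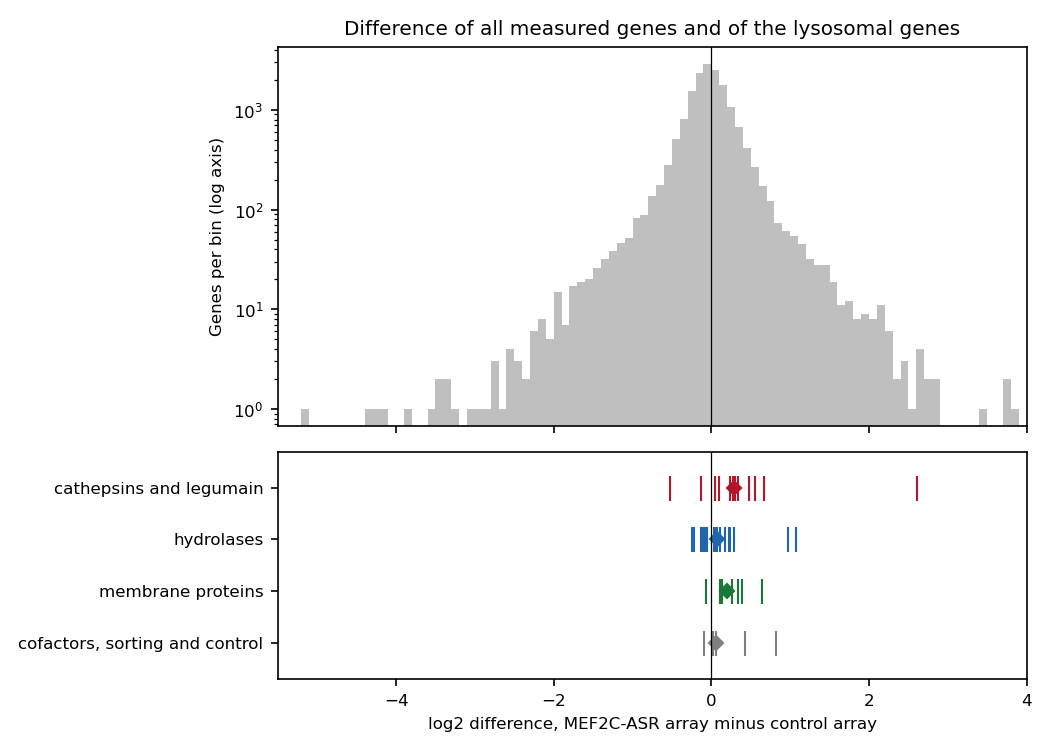
Upper panel, number of measured genes (log axis) in bins of the log2 difference, MEF2C-ASR minus control, over 16574 genes; lower panel, each measured member as a tick by role, with a diamond at the role's median. The medians are 0.29 for cathepsins and legumain, 0.07 for hydrolases, 0.20 for membrane proteins and 0.06 for cofactors.

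Other lysosomal genes, in lists that hold no member, were described the same way. Of 23 measured other hydrolases and activators, 16 were above 0 and none was 2-fold apart (median 0.03, or -0.09 with spike-in scaling). Of 19 measured other membrane and transport proteins, 7 were above 0 (median -0.05). The metal transporter Slc11a1, of phagosome membranes, was the one member of that list at least 2-fold higher, at 156 and 437 (2.87-fold). The 17 measured subunits of the vacuolar ATPase, which acidifies the lysosome, had a median of 0.16 with 13 above 0 and none 2-fold apart.

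In the list for sorting of lysosomal enzymes, 11 of 16 genes were above 0 (median 0.07, or -0.05 with spike-in scaling). Its one gene at least 2-fold apart was Igf2r, the cation-independent mannose 6-phosphate receptor, at 4440.1 in control and 1713 with MEF2C-ASR (2.53-fold lower). Of the receptor pair, M6pr was thus within 1.5-fold and Igf2r was not. Of 23 TFEB relatives, nutrient sensors and autophagy genes, 17 were above 0 (median 0.15). The autophagy receptor Sqstm1 gave 30125 and 43512 (0.57) and Map1lc3b, which coats autophagosomes, had a mean difference of 0.46, and no gene of that list was 2-fold apart.

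Of 10 measured genes in a list of cathepsin inhibitors, 3 were at least 2-fold higher and 1 lower (median 0.25). The stefins Stfa3, Stfa2l1 and Stfa2, cytosolic inhibitors of cysteine proteases, were 3.60-, 2.95- and 2.86-fold higher, from control signals of 9596, 21509 and 17988. They are related genes in a cluster, so signal may be shared between them, which was not tested. Spink2, an inhibitor of serine proteases, gave 155 and 37.6 (4.03-fold lower). Of 7 measured genes of antigen processing, of 10 listed, 6 were above 0 (median 0.27). Cd74, the invariant chain that cathepsin S trims, gave 255 and 1258 (5.07-fold higher). The 1 gene below 0 was H2-Eb1, for a chain of MHC class II, which was dim at 71.7 and 45.6 (1.53-fold lower). Cd74 was the only measured gene of that list at least 2-fold apart. Whether the difference of Cd74 goes with that of Ctss was not tested.

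**Figure D4:**
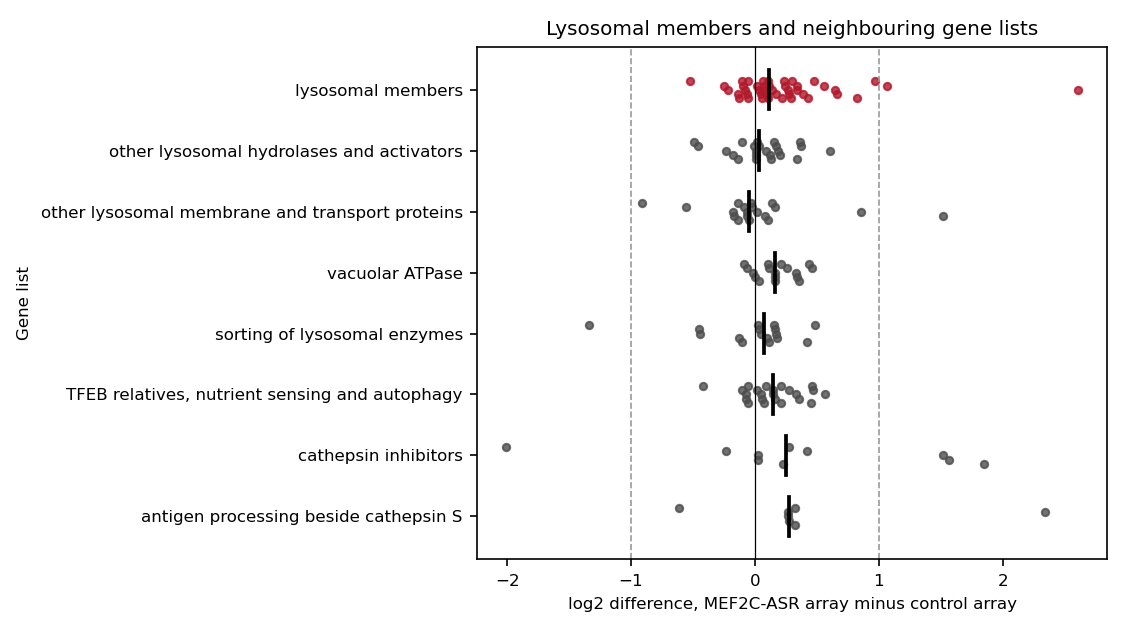
Difference of each measured gene (log2, MEF2C-ASR minus control; horizontal axis) in the 43 members and 7 neighbouring lists, with a thick bar at each list's median and dashed lines at 2-fold. The medians lie between -0.05 and 0.27, and the spread is widest for the cathepsin inhibitors.

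Markers of several cell types, myeloid and other, differed between the arrays as well, though not those of all. All 9 measured neutrophil markers were above 0 (median 1.22), 5 of them at least 2-fold higher, and their summed level was 281 and 417 times the 75th percentile. Mmp8, the neutrophil collagenase, was 5.37-fold higher and S100a8 2.41-fold. Of 9 measured monocyte and macrophage markers, of 16 listed, 7 were above 0 (median 0.55), with a summed level of 3.32 against 5.06. Msr1 was 6.23-fold higher from a dim control signal (48.5 and 295), Csf1r 3.08-fold and Ccr2 2.68-fold. Fcgr1 was lower, at 937 and 623 (1.43-fold), and C1qb was also below 0 (-0.08). All 11 myeloid progenitor markers were measured (median 0.27), and Mpo, an enzyme of neutrophil precursor granules, was 2.15-fold higher. Of 5 measured dendritic cell markers, of 8 listed, 4 were above 0 (median 0.31), and the transcription factor Batf3 was 2.37-fold higher. Of 5 measured mast cell, basophil and eosinophil markers, of 7 listed, 3 were above 0 and none was 1.5-fold apart (median 0.02). Their part in the differences of Ctss, Lyz1, Lyz2, Psap and Cd68 was not tested, and in bulk RNA more cells of a type cannot be told apart from more RNA per cell. Of 6 B cell markers 2 were measured on both arrays, with a summed level of 0.20 against 0.26, and 1 of them, the B cell receptor component Cd79a, gave 55.3 and 119 (2.21-fold higher).

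**Figure D5:**
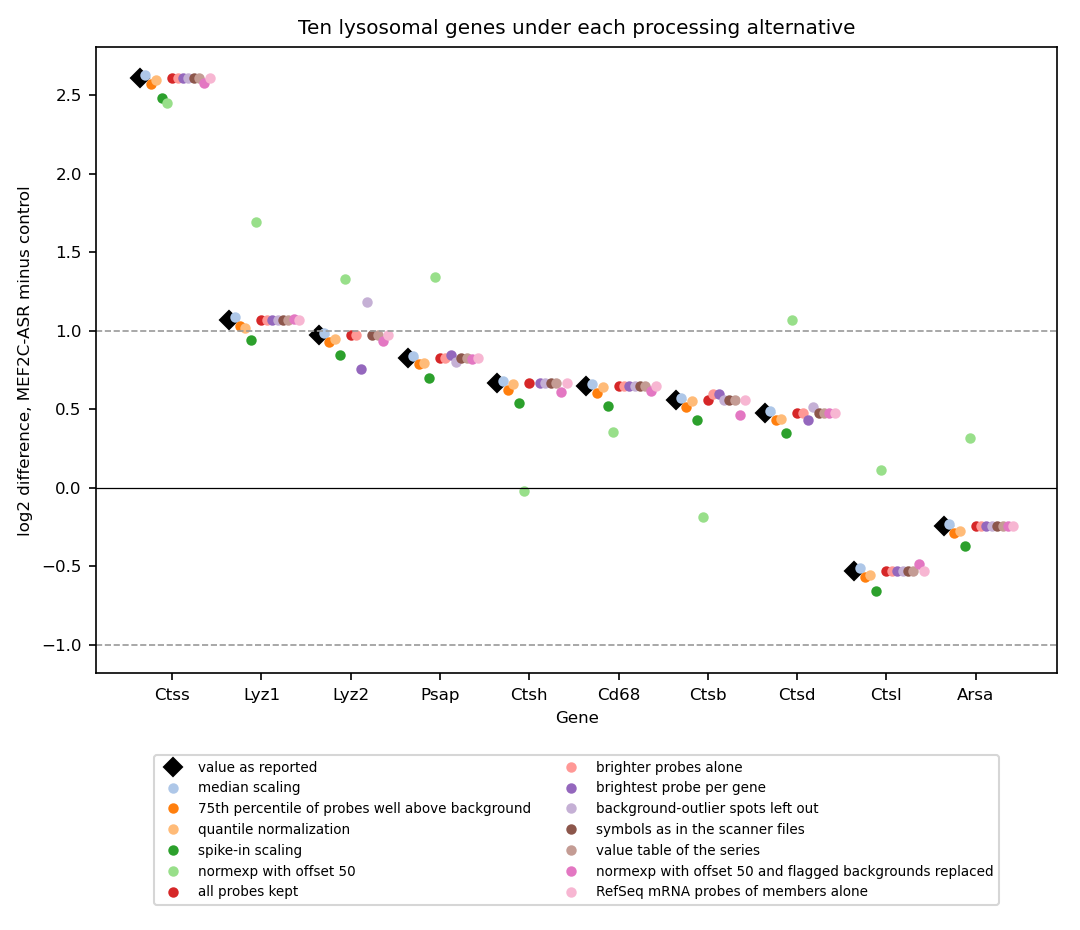
Difference of 10 members (log2, MEF2C-ASR minus control; vertical axis) as reported (black diamonds) and under each of 13 processing alternatives (circles), with dashed lines at 2-fold. Ctss stays between 2.45 and 2.63, and normexp on the backgrounds as deposited stands apart from the other settings for most of the genes.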

How the data were processed

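The deposited values are linear spot intensities. Per the file headers, Agilent Feature Extraction 9.5.1.1 made them, subtracted the background and set the flags used here. The deposited value table held the same intensity values (largest difference 0, medians 85.8 and 83.2), uncentred. For the probe positions the build was not given in the sources used here.

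Log2 signals were scaled by subtracting the 75th percentile of all non-control spots on that array. Outlier-flagged spots and control spots were left out, and spots of one probe were averaged. Measured probes are those well above background and unsaturated on both arrays. Genes were named through RefSeq (GRCm38.p6), and counts at 1.5- and 2-fold took only genes whose measured probes all had one sign, while counts above or below 0 and beyond 2 spotting errors used the mean over probes. All 45 members are named, with up to 4 genes at least 2-fold apart per other list, or its 2 brightest. Fcgr1, C1qb and H2-Eb1 are named as well, as the genes below 0 in their lists. Steps were tested on simulated data, with planted changes well past 2-fold in genes that were not dim. The recovery of changes near 1.5- and 2-fold, or in dim genes, was not tested. Python 3.11.15, R 4.3.3 and limma 3.58.1 (normexp, offset 50) were used. The members and lists were chosen with earlier results of these data known. There was 1 array per group, which limits precision.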

Additional observations from a re-analysis of the deposited data

How the results depend on the processing

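No paired analysis was possible because each group has 1 array. In all, 11 alternatives were planned and 2 were added after the data were seen. With spike-in scaling 1 member was at least 2-fold higher and 1 at least 1.5-fold lower, and 4 in place of 6 were at least 1.5-fold higher, since all differences shift by the same amount. With normexp on the backgrounds as deposited, 6 members were at least 2-fold higher and 4 lower, 16 were at least 1.5-fold higher and 5 lower, and the members' median was 0.35. The added normexp fit, which differed only in setting the flagged backgrounds (687 spots in control, 916 with MEF2C-ASR) to the array's median, gave 2 higher and 0 lower. It was added after the planned fit had been seen, and both are given. Leaving the planned normexp fit aside, 27 of 43 members kept their sign in each of the other 12 alternatives that gave them a value, 18 above 0 and 9 below. Ctse, Ctsh, Lgmn and Lipa, among these, had no value with the brighter probes alone. With the planned normexp fit included 13 did, 12 above 0 and 1 below. Not every alternative could change a sign, since the deposited value table held the same values as those reported. Taking the brightest probe per gene also leaves the 22 members with 1 measured probe unchanged. Spotting error limits the dim members, and differences between cultures could not be measured.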
